A study of Mus musculus with 60 samples.

Results

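The chaperonin CCT (also called TRiC) is a cytosolic protein-folding machine whose 8 subunits are encoded by Tcp1, Cct2, Cct3, Cct4, Cct5, Cct6a, Cct7 and Cct8. These genes were taken from the expression table by their symbols, and all 8 were found among 27238 genes. The level of each was followed in 60 RNA-seq libraries of 20 groups, with 3 libraries per group.

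The CCT subunits assemble into a pair of stacked rings, in which each subunit has a fixed place. The closed chamber of the complex folds actin, tubulin and many proteins with WD40 repeats. Prefoldin hands substrates over to it, and phosducin-like proteins act as its cofactors. The oocyte supplies the first embryonic divisions with stored RNA and protein, and the embryo begins to transcribe its own genes around the 2-cell stage in the mouse.

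The in vivo embryos came from superovulated C57BL/6 females mated with DBA2 males. NTC embryos were made by transfer of a cumulus cell (CC) nucleus, and NTM embryos by transfer of a mouse embryonic fibroblast (MEF) nucleus, into enucleated BDF1 oocytes. Donor cells and embryos of all groups had the BDF1 background, and each embryo library held a single embryo chosen by its morphology at the 1-cell, 2-cell, 4-cell, 8-cell, morula or blastula stage. The reconstructed oocytes were activated with strontium, were given cytochalasin B and the deacetylase inhibitor Scriptaid, and developed in culture, whereas the in vivo embryos developed in the female. Nuclear transfer, activation, drug exposure and culture therefore cannot be told apart in any comparison with in vivo embryos. The same holds for the source of the oocyte, a C57BL/6 female for in vivo and a BDF1 female for NT embryos. The CCs were used fresh and the MEFs were serum-starved fetal cells. The 3 libraries of a group were given as biological replicates, and nothing tied a numbered library of one group to that of another.

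Depth was 5294167 to 26281508 reads on genes in the 54 embryo libraries and at least 31558140 in the 6 donor libraries. The in vivo 4-cell libraries stood apart from the other 4-cell embryos. Mitochondrial genes took 5.68% to 8.87% of their reads, against 29.6% to 40.4% in the 6 NT 4-cell libraries, and 13576 to 13932 genes were above 0, against 8997 to 11929. For the CCT genes, the results that rest on these 3 libraries are therefore followed by the same comparison with 8-cell embryos. For the other genes named below, such as those of prefoldin, tubulin, actin and WD40 proteins, no such comparison is given. The fibroblast markers summed to 5428 RPKM or more in MEFs and to at most 3.801 in CCs. In CCs the granulosa genes Inha (190.8 RPKM or more) and Star (14.7 or more) were high, but Cyp19a1 and Has2 were listed at 0 in all 3 libraries. The 10 cumulus markers summed to 473.8 to 778.4 RPKM in CCs and to 496.1 to 1209 in MEFs, so this list did not separate the donors. Above 1 RPKM in all 3 libraries were 4 of them in CCs and 3 in MEFs. In the embryos, the 10 cumulus markers summed to at most 8.43 RPKM and the 8 fibroblast markers to at most 21.2.

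Values are RPKM, that is, reads on a gene scaled to its exon length and to the reads on all genes of the library. The CCT genes lie on 8 chromosomes (build GRCm38). Tcp1 is at chr17:12915701-12925067, Cct2 at chr10:117051001-117063814, Cct3 at chr3:88297116-88321767 and Cct4 at chr11:22990519-23003780. Cct5 is at chr15:31590800-31601804, Cct6a at chr5:129786998-129846371, Cct7 at chr6:85451514-85468475 and Cct8 at chr16:87483326-87495873. The values of each gene were whole numbers of reads (within 0.05 reads) at a single exon length in all 60 libraries, so the same gene model had been used throughout. This length ran from 1962 bases for Cct2 to 6778 for Cct7, with long models for Tcp1 (5030) and Cct3 (6370) as well. A read that falls on a long model adds less RPKM, so a level is best compared within a gene, across groups.

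Some reads of these genes could also belong to a neighbour or a copy. Of the 50-base words in the annotated transcripts, 15.4% of Cct6a (mostly with the neighbour Psph) and 13.9% of Tcp1 (mostly with the neighbour Acat3) occur in another gene. The share was 4.28% for Cct8 (with Usp16), 2.89% for Cct7, 0.793% for Cct3 (mostly with its processed pseudogene Cct3-ps1), 0.364% for Cct4, and 0 for Cct2 and Cct5. The study's methods name TopHat for mapping and HTSeq for counting, but the counting mode and strand setting are not given in the sources used here, so the levels of Cct6a and Tcp1 carry this uncertainty most.

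The CCT total was lower in 2-cell than in 4-cell embryos of all 3 types, and single genes departed from this course. Cct3 and Cct8 stayed low after the 2-cell stage in all but one group, and Cct2 in NTC 1-cell embryos (87.7, 121.2 and 100.2 RPKM) lay within its range in in vivo 4-cell embryos. Summed over the 8 genes, the in vivo embryos had 74.4 ± 33.8 RPKM at the 1-cell stage (SD, n = 3, as for every group), 89.2 ± 10.6 at the 2-cell stage, 1434 ± 199 at the 4-cell stage and 458 ± 137 at the 8-cell stage. The NTC embryos went from 105 ± 13.2 at the 2-cell stage to 708 ± 91.5 at the 4-cell stage, and the NTM embryos from 55.7 ± 15.7 to 692 ± 236. CCs had 1256 ± 299 and MEFs 794 ± 106. In all 3 types of embryo the 4-cell libraries lay above every 2-cell library of the same type. In bulk RNA of a whole embryo, fewer cells with a transcript and less transcript per cell cannot be told apart.

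**Figure D1:**
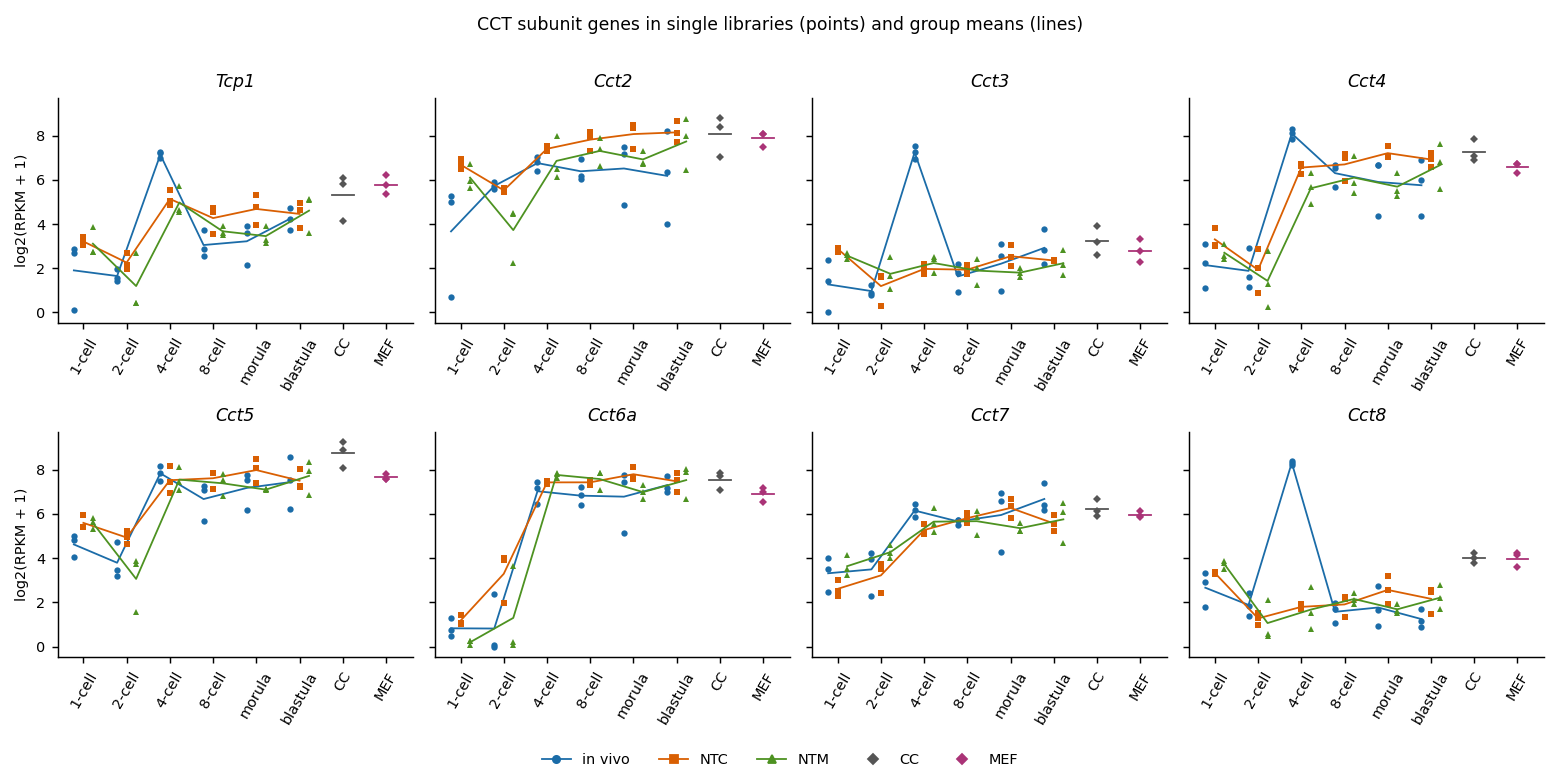
Level of each CCT subunit gene as log2(RPKM + 1) (vertical axis) in the 60 libraries, by stage for in vivo, NTC and NTM embryos and for the donor cells CC and MEF; points are libraries and lines join group means. In the in vivo 4-cell embryos Cct3 and Cct8 lay far above every other library, whereas Cct2, Cct5, Cct6a and Cct7 lay inside the range of the other libraries.

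Cct3 and Cct8, which encode the gamma and theta subunits, were high in one group of embryos. Cct3 stood at 153.3, 183.6 and 121.5 RPKM in the 3 in vivo 4-cell embryos, and at no more than 14.2 RPKM in any of the other 57 libraries, where its median was 3.52. Cct8 stood at 318.6, 297.3 and 338.2 RPKM in the same embryos and at no more than 17.8 RPKM elsewhere. The highest of the other libraries was a CC library for both genes. The lowest in vivo 4-cell library thus lay 8.55-fold above the highest other library for Cct3 and 16.7-fold above it for Cct8.

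Tcp1, which encodes the alpha subunit, did the same on a smaller scale. Its in vivo 4-cell embryos held 124.4, 146.7 and 150.3 RPKM, 1.69-fold or more above the highest other library, a MEF library at 73.5 RPKM. Among embryos the next highest was an NTM 4-cell embryo at 51.6 RPKM. Cct4 (delta subunit) reached 227.3, 318.6 and 280.1 RPKM there, which overlapped a CC library at 231.9. Cct2, Cct5, Cct6a and Cct7 in the in vivo 4-cell embryos fell inside the range of the other 57 libraries. Such a separation was not particular to these genes: of 13535 genes with a mean of at least 0.5 RPKM, 941 (6.95%) were higher in every in vivo 4-cell library than in all others, and 108 (0.798%) by 8-fold or more.

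The share of each gene in the CCT total does not depend on library scaling. Cct3 and Cct8 together made up 29.6% to 38.5% of the summed RPKM of the 8 genes in the in vivo 4-cell embryos. In the 33 other libraries from the 4-cell stage to the blastula they made up 0.395% to 2.82%, and in the 6 donor libraries 1.63% to 3.18%. In the 18 libraries of 1-cell and 2-cell embryos, they made up 2.33% to 15.2%. The in vivo 4-cell range overlapped none of these. The pair was chosen after its high values in that group were seen, so this separation follows from the choice.

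**Figure D2:**
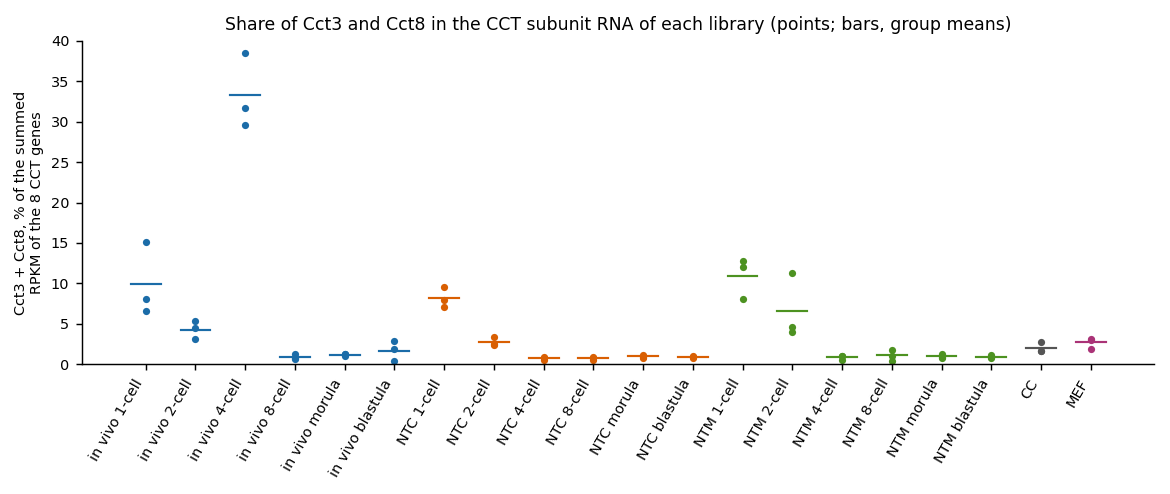
Share of Cct3 and Cct8 in the summed RPKM of the 8 CCT genes (vertical axis, %) for each library of the 20 groups; points are libraries and bars group means. The in vivo 4-cell embryos averaged 33.2%, and the embryo groups from the 8-cell stage on averaged at most 1.69%. The pair was chosen after the values were seen.

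The regions upstream of the starts are shown for Cct3 and Cct8, which stood apart, and for Cct7, which moved with the other members. They run from 250 to 21 bases before the RefSeq start (build GRCm38.p6) and are written 5′ to 3′ on the strand of the gene. Capitals mark matches, on either strand, to any of 5 motifs, which are the heat shock element core GAANNTTC, the ETS motif CCGGAAG, the CCAAT box CCAAT, the GC box GGGCGG and the E-box CACGTG, and no matches overlapped.
Cct3, chr3:88296885-88297114, plus strand: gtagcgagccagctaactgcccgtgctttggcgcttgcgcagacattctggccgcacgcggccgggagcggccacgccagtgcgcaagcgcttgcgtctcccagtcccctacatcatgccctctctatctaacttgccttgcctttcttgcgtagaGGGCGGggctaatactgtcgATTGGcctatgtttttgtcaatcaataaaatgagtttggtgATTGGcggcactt
Cct8, chr16:87495890-87496119, minus strand: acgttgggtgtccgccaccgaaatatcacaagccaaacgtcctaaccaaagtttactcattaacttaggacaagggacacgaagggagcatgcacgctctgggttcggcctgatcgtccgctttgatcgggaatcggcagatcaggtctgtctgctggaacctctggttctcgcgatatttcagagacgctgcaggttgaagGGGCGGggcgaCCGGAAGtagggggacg
Cct7, chr6:85451255-85451484, plus strand: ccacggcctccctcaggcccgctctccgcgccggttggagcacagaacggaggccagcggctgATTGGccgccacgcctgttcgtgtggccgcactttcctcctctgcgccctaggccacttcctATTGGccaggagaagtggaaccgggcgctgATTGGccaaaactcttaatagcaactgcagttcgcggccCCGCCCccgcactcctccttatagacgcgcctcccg

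The capitals differ among the 3 regions. Cct3 held 2 CCAAT boxes and 1 GC box, Cct7 held 3 CCAAT boxes and 1 GC box, and Cct8 held 1 GC box and 1 ETS motif. Sequences were at hand for 9 starts of 7 genes, Cct2 and Cct5 having 2 each, and none for Cct4. A GC box was found in 7 of these 9 windows, against 29.8% of the windows of 32851 starts in the table. CCAAT boxes were found upstream of Tcp1, Cct3, Cct6a and Cct7 (32.2% of all windows), the ETS motif upstream of Cct8 alone (5.56%), the heat shock element core upstream of Cct2 alone (6.01%), and the E-box upstream of none (5.35%). Cct3 and Cct8 had no motif in common other than the GC box, which all 7 genes had at one start or more.

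Changes between stages were tested with limma on log2(RPKM + 1), and a gene was called at an adjusted p under 0.05 and a log2 difference of at least 1 in size. From the 2-cell to the 4-cell stage, all 8 CCT genes were up-regulated in the in vivo embryos, where 31.4% of 12995 genes were called higher. The median log2 difference was 5.85 over the CCT genes and 0.36 over all genes tested. The NTC embryos up-regulated 6 CCT genes (16.4% of all genes called higher) and the NTM embryos 5 (12.1%). Neither NT group showed a called change of Cct3 or Cct8 at this step.

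The changes in the in vivo embryos ran from 1.03 to 6.44 on the log2 scale. Cct8 changed by 6.44 ± 0.38 (SE, adjusted p = 3.439e-05), Cct3 by 6.28 ± 0.35 (adjusted p = 2.809e-05) and Tcp1 by 5.49 ± 0.34. Cct4 changed by 6.22 ± 0.51, and Cct6a, the zeta subunit gene, by 6.21 ± 0.70 from a level near 0. Cct5 (epsilon subunit) changed by 4.05 ± 0.48 and Cct7 (eta subunit) by 2.66 ± 0.56. Cct2, which encodes the beta subunit, made up 58.5% ± 4.28 of the CCT total at the 2-cell stage, with 58.1, 46.3 and 51.7 RPKM. This share depends on exon length, which is shortest for Cct2 (1962 bases, against 6778 for Cct7). In reads, Cct2 had 2124, 1263 and 1677 in these libraries and Cct7 had 497, 1362 and 1972. By reads, Cct2 thus did not lead in every library. Cct2 reached 83.4, 131.8 and 112.2 RPKM at the 4-cell stage, a difference of 1.03 ± 0.32 (adjusted p = 0.0309). This call was lost under 7 of 12 alternatives (adjusted p up to 0.245).

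In the NT embryos Cct6a and Cct4 were among the genes that rose most. Cct6a rose in NTC embryos from 14.9, 2.89 and 14.2 RPKM at the 2-cell stage to 180.8, 172.1 and 161.4 at the 4-cell stage, a log2 difference of 4.14 ± 0.57 (adjusted p = 0.000934). In NTM embryos it rose from 11.4, 0.141 and 0.0446 to 232.0, 198.2 and 221.6 RPKM, a difference of 6.47 ± 0.95 (adjusted p = 0.0022). No 4-cell library overlapped a 2-cell library in either group. Cct4 rose by 4.63 ± 0.55 in NTC and by 4.19 ± 0.80 in NTM embryos, and Cct5 by 2.60 ± 0.41 and 4.496 ± 0.74. Cct7 was called in NTC embryos (2.05 ± 0.48) but not in NTM embryos (1.38 ± 0.56, adjusted p = 0.107), where nuclear genes only (1.78, adjusted p = 0.0432) and a fit over all 20 groups called it as well, and this difference between the groups was not tested. Cct2 rose by 3.13 ± 0.80 in NTM embryos, a call that leaving out any one of 5 libraries ended (adjusted p up to 0.0752). Without NTM 2-cell replicate 2 the call of Tcp1 (3.78 ± 0.80) was lost as well (adjusted p = 0.0537), which left 3 genes.

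Cct3 and Cct8 stayed low at this step in the NT embryos. The 3 NTC 4-cell embryos held 2.35, 2.94 and 3.54 RPKM of Cct3 and 2.38, 2.27 and 2.78 RPKM of Cct8. The NTM 4-cell embryos held 2.47, 4.27 and 4.71 RPKM of Cct3 and 0.726, 1.86 and 5.55 RPKM of Cct8. The log2 difference from the 2-cell stage was 0.78 ± 0.54 (adjusted p = 0.289) for Cct3 and 0.52 ± 0.46 (adjusted p = 0.387) for Cct8 in NTC embryos. In NTM embryos it was 0.49 ± 0.66 (adjusted p = 0.578) and 0.61 ± 0.78 (adjusted p = 0.554).

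Whether the step differed between embryo types was tested by interaction terms. The change of Cct3 was smaller by 5.50 ± 0.62 in NTC than in in vivo embryos, a log2 value of -5.50 (adjusted p = 0.000121), and that of Cct8 had a term of -5.91 ± 0.54 (adjusted p = 3.384e-05). For Tcp1 the term was -2.61 ± 0.53 (adjusted p = 0.00609). With NTM embryos the terms were -5.79 ± 0.70 for Cct3 (adjusted p = 0.000481) and -5.83 ± 0.87 for Cct8 (adjusted p = 0.00149), and Tcp1 was not called (-1.71 ± 0.89, adjusted p = 0.265). These were the 3 of 8 and 2 of 8 CCT genes called lower, against 12% of 13221 and 8.05% of 13062 genes. The other 5 CCT genes had no called interaction in either group in the fit reported, the lowest adjusted p being 0.168 (Cct5, NTC). With NTC embryos, Cct5 was called without in vivo 2-cell replicate 1 (-1.91, adjusted p = 0.0474). Cct6a was called there without in vivo 2-cell replicate 3 (-2.86, adjusted p = 0.0279).

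**Figure D3:**
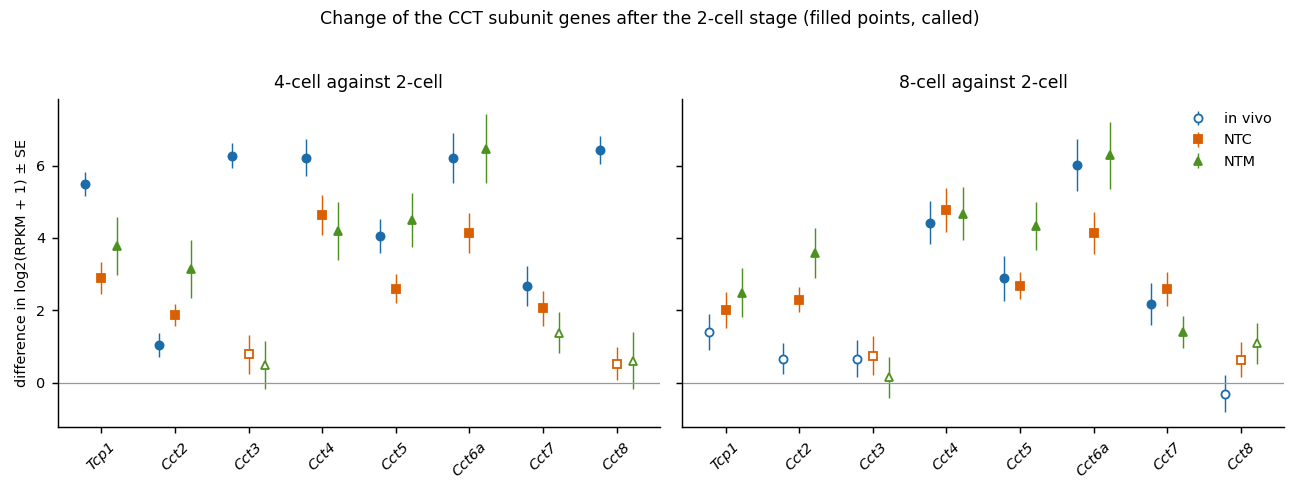
Difference in log2(RPKM + 1) from the 2-cell to the 4-cell stage (left) and from the 2-cell to the 8-cell stage (right) for each CCT gene, with SE, in in vivo, NTC and NTM embryos; filled points were called. Cct3 and Cct8 rose in the left panel by 6.28 and 6.44 in in vivo embryos alone, and no group had a called change of either gene in the right panel.

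With the 8-cell libraries in place of the 4-cell libraries, an alternative chosen after the data were seen, the in vivo embryos had 4 genes called higher than at the 2-cell stage (Cct4, Cct5, Cct6a and Cct7, against 13.8% of 11199 genes). NTC and NTM embryos had 6 each, namely those 4 with Tcp1 and Cct2 (14.1% and 17.9% of genes). Cct3 differed from the 2-cell stage by 0.66 ± 0.50 (in vivo), 0.74 ± 0.53 (NTC) and 0.15 ± 0.56 (NTM). For Cct8 the values in this order were -0.31 ± 0.51, 0.63 ± 0.49 and 1.09 ± 0.56, and none was called. No interaction of the CCT genes was called in this form, the lowest adjusted p being 0.16 (Cct2, NTM), and 0.219% and 0.577% of all genes were called. The results on Cct3, Cct8 and Tcp1 therefore rest on the 3 in vivo 4-cell libraries, which also had the lower mitochondrial share and the larger number of genes above 0. With mitochondrial genes left out of the scaling, the terms were -5.17 and -5.59 for Cct3 and Cct8 with NTC and -5.46 and -5.50 with NTM embryos, and all were called. The part of the larger number of genes in the result was not tested.

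After the 4-cell stage, the in vivo embryos down-regulated 4 of the 8 CCT genes, where 39.3% of 10417 genes were called lower. Cct8 fell to 2.195, 2.88 and 1.12 RPKM at the 8-cell stage, a log2 difference of -6.75 ± 0.33 (adjusted p = 1.584e-05). Cct3 fell to 2.39, 3.52 and 0.920 RPKM, a difference of -5.62 ± 0.41, and Tcp1 to 12.4, 4.84 and 6.27 RPKM, a difference of -4.09 ± 0.37. Cct4 fell by 1.79 ± 0.31 on the log2 scale, but the median of all genes at this step was -1.05 and the call was lost with median-ratio scaling (-0.37, adjusted p = 0.327). Cct2, Cct5, Cct6a and Cct7 differed by -0.20 to -1.17 and were not called. With median-ratio scaling the split was 3 lower and 2 higher, since Cct2 (1.05, adjusted p = 0.0212) and Cct6a (1.22, adjusted p = 0.0241) turned direction and were then called, while the median of all genes was -0.16. Without in vivo 8-cell replicate 1, Cct5 was called lower (-1.46, adjusted p = 0.0374). No CCT gene was called in NTC or NTM embryos at this step, where 0.0564% and 0.363% of genes were called, and 0 and 1 of the 8 passed 0.05 before adjustment. Of all genes tested, 1139 of 10634 and 1092 of 9632 passed 0.05 before adjustment.

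From the 8-cell stage on no change of a CCT gene was called by limma. This held for the 6 transitions from the 8-cell stage to the morula and from the morula to the blastula. The share of all genes called was 0.0116% and 0.801% in in vivo embryos, 0% and 7.16% in the NTC group and 0% and 4.22% in the NTM group. At an unadjusted p under 0.05 there was 1 member in all 6, in the NTM blastula against the NTM morula. The counts of all genes were 873 of 8592 and 1480 of 8619 in in vivo embryos. They were 1270 of 10107 and 2503 of 10044 in NTC and 843 of 8841 and 2276 of 9823 in NTM embryos. Without NTM blastula replicate 3 the NTM blastula against the NTM morula called 2 of the 8 genes. The in vivo blastulas varied widely, from 14.8 to 290.9 RPKM for Cct2 and from 73.3 to 384.7 RPKM for Cct5. In NTM blastulas Cct2 ran from 86.5 to 433.9 RPKM.

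From the 1-cell to the 2-cell stage 5 changes of CCT genes were called. No CCT gene was called in in vivo embryos, where no gene at all was called by limma and 615 of 10854 had an unadjusted p under 0.05. In NTC embryos Cct2 fell from 87.7, 121.2 and 100.2 to 42.2, 44.6 and 48.7 RPKM (-1.16 ± 0.22, adjusted p = 0.0111). Cct8 fell there from 9.41, 8.93 and 8.85 to 1.89, 1.46 and 0.979 RPKM (-2.06 ± 0.38, adjusted p = 0.00973), and Cct6a rose (2.12 ± 0.59, adjusted p = 0.0451). These were 2 lower and 1 higher, against 8.95% and 4.53% of 11915 genes. In NTM embryos Cct5 fell by 2.53 ± 0.63 and Cct8 by 2.67 ± 0.61 on the log2 scale, against 6.68% of 10920 genes called lower. All 5 calls were lost under 3 or more of 12 alternatives, Cct8 in NTC embryos only when a library of the 1-cell stage was left out. In the in vivo group Cct8 stood at 2.42, 6.49 and 8.89 RPKM at the 1-cell stage and at 1.58, 2.59 and 4.39 RPKM at the 2-cell stage, a difference of -0.78 ± 0.78 (adjusted p = 0.834). Whether this step differed between embryo types was not tested. A count of 0 was met for Cct3 in an in vivo 1-cell embryo and for Cct6a in an in vivo 2-cell embryo, and allows up to 0.0451 and 0.0445 RPKM by counting alone (3 reads).

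The NT embryos were then compared with in vivo embryos of the same stage. At the 4-cell stage the same 4 CCT genes, Cct8, Cct3, Tcp1 and Cct4, were down-regulated in NTC and in NTM embryos. Of all genes, 20.4% of 11457 were called lower in the NTC comparison and 17.8% of 11143 in the NTM comparison. The 2 comparisons share the in vivo libraries, and their values are set side by side. Cct8 differed by -6.52 ± 0.27 in NTC (adjusted p = 3.794e-06) and by -6.65 ± 0.54 in NTM embryos (adjusted p = 0.000316). Cct3 differed by -5.28 ± 0.32 (adjusted p = 1.28e-05) and -5.01 ± 0.42 (adjusted p = 0.000374). All 6 NT embryos lay below all 3 in vivo embryos for both genes.

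The 2 other genes differed less. Tcp1 held 27.7, 45.1 and 32.0 RPKM in NTC and 22.5, 24.2 and 51.6 RPKM in NTM 4-cell embryos, a difference of -2.00 ± 0.28 (adjusted p = 0.00098) and -2.17 ± 0.42 (adjusted p = 0.00997). The NTM call was lost without in vivo 4-cell replicate 2 or replicate 3 (adjusted p = 0.0564 and 0.0548). Cct4 held 76.8, 99.1 and 105.8 RPKM in NTC and 49.9, 28.7 and 77.1 RPKM in NTM embryos, a difference of -1.54 ± 0.24 (adjusted p = 0.00191) and -2.48 ± 0.41 (adjusted p = 0.00577). The NTC call was lost in a single fit over all 20 groups (adjusted p = 0.0571). Neither gene overlapped the in vivo embryos in any NT embryo.

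The remaining 4 subunit genes were not called at the 4-cell stage in the fit reported, and this depended on the scaling for a pair of them. Cct6a held 85.2, 174.8 and 145.6 RPKM in the in vivo group, 180.8, 172.1 and 161.4 in the NTC group and 232.0, 198.2 and 221.6 in the NTM group (differences of 0.40 ± 0.29 and 0.74 ± 0.34). Cct5 held 178.1, 284.8 and 233.4 RPKM in in vivo embryos and overlapped them in both NT groups (-0.31 ± 0.34 and -0.28 ± 0.36). Cct2 was higher in every NTC than in every in vivo embryo, by 0.65 ± 0.25 (adjusted p = 0.0861), and Cct7 lower in every NTC embryo, by 0.88 ± 0.29 (-0.88, adjusted p = 0.0508). In NTM embryos both overlapped the in vivo embryos, and Cct6a was higher in every NTM than in every in vivo embryo (adjusted p = 0.162). With median-ratio scaling and with nuclear genes only, Cct2 was called higher in NTC embryos (1.11 and 1.12, adjusted p = 0.014 and 0.00941) and Cct6a in NTM embryos (1.51 and 1.26, adjusted p = 0.0301 and 0.04). Without NTC 4-cell replicate 1, Cct7 was called lower in NTC embryos (-1.03, adjusted p = 0.0367).

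**Figure D4:**
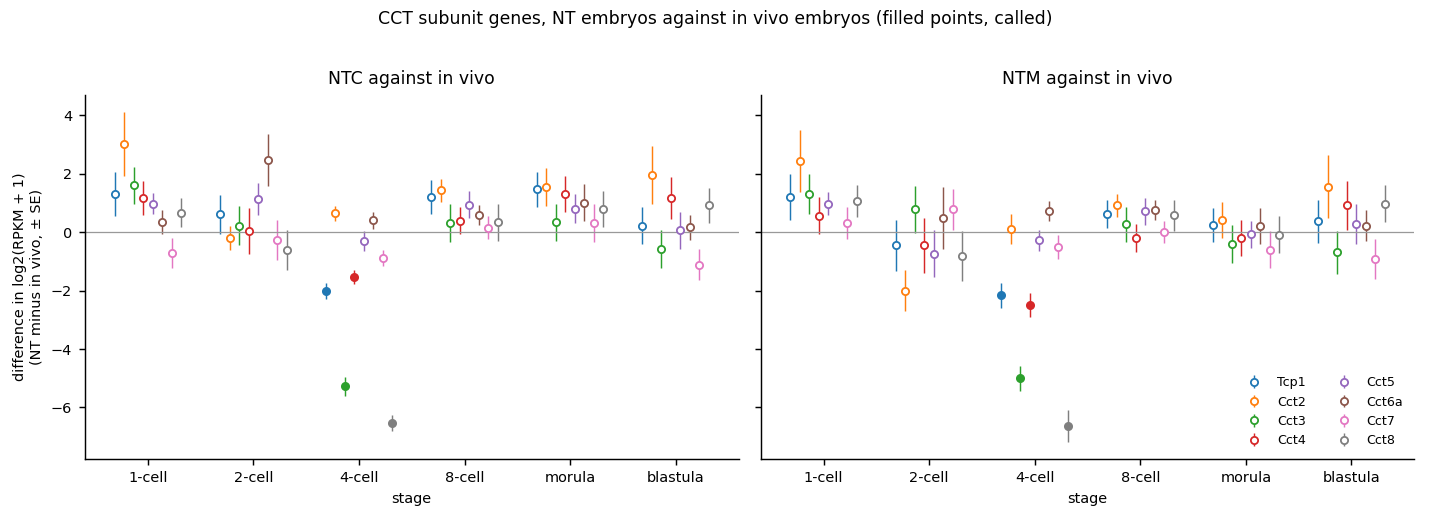
Difference in log2(RPKM + 1) between NT and in vivo embryos (vertical axis, NT minus in vivo, ± SE) for each CCT gene by stage, for NTC (left) and NTM embryos (right); filled points were called. The only called points are Tcp1, Cct3, Cct4 and Cct8 at the 4-cell stage, with Cct8 at -6.52 and -6.65.

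At the other 5 stages no CCT gene was called in either NT group against in vivo embryos. In NTC embryos, 1.16% of all genes were called at the 1-cell, 0.152% at the 2-cell, 1.46% at the 8-cell, 0.0321% at the morula and 9.46% at the blastula stage. For the NTM group these shares were 1.28%, 0.141%, 2.02%, 0.168% and 0.746%. At an unadjusted p under 0.05 there were 3 CCT genes at the 1-cell, 1 at the 2-cell, 1 at the 8-cell, 2 at the morula and 0 at the blastula stage in NTC embryos. Of all genes tested, 2517 of 10834, 1097 of 11822, 1893 of 9520, 1247 of 9341 and 2684 of 9288 did so in this order. The CCT counts in NTM embryos were 2, 1, 2, 0 and 0, and Cct6a was too low to be tested at the 1-cell stage. The counts of all genes there were 1525 of 10307, 1067 of 11345, 1594 of 8607, 849 of 8955 and 2458 of 9380. The largest of these differences was in Cct2 at the 1-cell stage. The in vivo 1-cell embryos held 0.634, 37.9 and 31.2 RPKM of Cct2, the NTC embryos 87.7, 121.2 and 100.2, and the NTM embryos 60.6, 105.7 and 48.1. All 6 NT embryos lay above the in vivo embryos, but the differences of 3.02 ± 1.10 and 2.43 ± 1.07 were not called (adjusted p = 0.163 and 0.338). Without in vivo 1-cell replicate 1, which was the embryo at 0.634 RPKM, 1 CCT gene was called in NTC embryos.

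Between the 2 kinds of NT embryo no CCT gene was called at any stage, where 19.8% of genes were called at the 1-cell stage, 0.0507% at the 8-cell stage and 0% at the other 4. Before adjustment, 2 CCT genes passed 0.05 in 1-cell embryos, 2 in 2-cell embryos and 0 in 4-cell embryos, 8-cell embryos and blastulas. Of all genes tested, 4098 of 10799, 772 of 11609, 602 of 10233, 1294 of 9853 and 315 of 10187 did so in this order. At the morula stage every CCT gene was lower in each NTM embryo than in each NTC embryo, though by little for some. The highest NTM morula held 2.80 RPKM of Cct8 and the lowest NTC morula 2.85. How many of all genes were separated in this way was not counted. Cct4 stood at 185.7, 128.7 and 132.6 RPKM in NTC and 37.5, 44.5 and 77.6 RPKM in NTM morulae, a difference of -1.52 ± 0.36 (adjusted p = 0.1). The 8 differences ran from -0.74 (Cct3) to -1.52 with a median of -0.90, and 6 passed 0.05 before adjustment. Over all 9186 genes the median was -0.40, 1534 passed 0.05 before adjustment, and none was called by limma. NTM morulae also had 45.5% to 56.98% of their reads on mitochondrial genes, against 28.1% to 44.98% in NTC morulae. With mitochondrial genes left out the median of the CCT differences was -0.60 (all genes -0.15), and with median-ratio scaling it was -0.41 (all genes 0.01).

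The donor cells were compared with each other. No CCT gene was called between MEFs and CCs, where 6.29% of genes were called and 1 of the 8 passed 0.05 before adjustment. Of all genes tested, 2192 of 11978 passed 0.05 before adjustment. Cct5 had its highest group mean in CCs, at 478.8, 605.7 and 269.1 RPKM, against 220.6, 189.1 and 192.4 RPKM in MEFs (-1.09 ± 0.33, adjusted p = 0.105). Without CC replicate 3, 1 CCT gene was called. Cct8 stood at 15.1, 17.8 and 12.8 RPKM in CCs and 10.9, 16.5 and 17.6 RPKM in MEFs.

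Blastulas were compared with their donor cells. Cct8 was the CCT gene called lower in NTC blastulas than in CCs (-1.85 ± 0.50, adjusted p = 0.0327) and in NTM blastulas than in MEFs (-1.76 ± 0.48, adjusted p = 0.0243). In these comparisons 14.3% and 19.8% of genes were called lower. The median of all genes was -0.32 and -0.47. The first call was lost with median-ratio scaling, with nuclear genes only and without any one of 4 libraries (adjusted p up to 0.0816), while 2 genes were called without CC replicate 3, and the second without any one of 4 libraries (adjusted p up to 0.0697). The other 7 genes had differences of -1.24 to 0.63 and were not called.

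Across groups, Cct3 and Cct8 were set apart from the other 6 genes after their values were seen. Over the 20 group means of log2(RPKM + 1), Pearson's r between pairs of Tcp1, Cct2, Cct4, Cct5, Cct6a and Cct7 ran from 0.617 to 0.949, with a median of 0.861. Between any of these and Cct3 or Cct8 it ran from 0.033 to 0.734, with a median of 0.313. Cct3 and Cct8 had r = 0.889 with each other, and 0.581 over the 19 groups without the in vivo 4-cell embryos, where the pairs between them and the other 6 genes reached 0.692. Over the 17 embryo groups without the in vivo 4-cell embryos it was 0.377, inside the range of those pairs (-0.398 to 0.603), so that the closeness of Cct3 and Cct8 rests on that group. The groups share stage, depth and amplification, so these values describe the table and are not independent.

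In the order of the 20 group means, neighbouring groups overlapped in their libraries at all but 1 or 2 of 19 steps for each gene. For Tcp1, Cct3 and Cct8 such a step lay between the in vivo 4-cell embryos, which came first, and the next group (MEFs for Tcp1, CCs for the other two). For Cct4 it lay between NTM 4-cell and NTC 1-cell embryos, for Cct6a between in vivo 8-cell and NTC 2-cell embryos and for Cct7 between NTC 4-cell and NTM 2-cell embryos. The genes whose group means were most like the mean of the CCT genes, among 11349 genes with a mean of at least 1 RPKM, were Cox4i1 (r = 0.966), Slc25a3 (0.965), Ssr2 (0.963), Chchd2 (0.962) and Pmm2 (0.955) over the 20 groups. Over the 18 embryo groups they were Chchd2 (0.978), Bud23 (0.965), Cox4i1 (0.965), Slc25a3 (0.963) and Psma6 (0.962). Cox4i1 encodes a subunit of cytochrome c oxidase, Slc25a3 the mitochondrial phosphate carrier and Psma6 a subunit of the proteasome.

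The partners of the chaperonin were read from hand-made lists at the step from the 2-cell to the 4-cell stage. Over all genes tested, 31.4% were called higher and 20.8% lower in in vivo embryos at this step, 16.4% and 20.1% in the NTC group, and 12.1% and 14.3% in the NTM group. Of 6 prefoldin genes, which encode the hexamer that delivers unfolded actin and tubulin to CCT, 4 rose and 1 fell from the 2-cell to the 4-cell stage in in vivo embryos, and 2 rose and 1 fell in NTC embryos. Pfdn6 went from 1.46 ± 1.98 to 110.8 ± 24.5 RPKM (log2 difference of 5.77 ± 0.58) and Pfdn1 from 0.751 ± 0.513 to 43.1 ± 2.62 RPKM (4.70 ± 0.38). Pfdn4 fell from 243.1 ± 211.3 to 6.03 ± 1.01 RPKM (-4.79 ± 0.59). The 3 phosducin-like cofactor genes tested had no called change in in vivo embryos, and 1 rose in each NT group. Of the mitochondrial chaperonin genes Hspd1 and Hspe1, none was called in in vivo embryos and 1 rose in each NT group. Cct6b, a testis paralogue of Cct6a, was listed at 0 in the 3 in vivo 2-cell embryos and stood at 5.61 to 6.78 RPKM in the 3 in vivo 4-cell embryos.

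The client genes of the complex moved both ways at this step. In in vivo embryos 4 of 15 tubulin genes tested rose and 3 fell, 1 of 5 actin and actin-related genes rose and 1 fell, 5 of 13 genes for WD40 proteins rose and 3 fell, and 3 of 5 tubulin cofactor genes rose and 1 fell. In NTC embryos 6 of 16 tubulin genes fell and none rose, and in NTM embryos 4 of 15 fell and 1 rose. Of the 8 oocyte genes Zp1 to Zp3, Gdf9, Bmp15, Nlrp5, Ooep and Zar1, 7 fell in the in vivo group, 7 in the NTC group and 5 in the NTM group.

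Some partner genes had the pattern of Cct3 and Cct8 in the 4-cell comparison. The tubulin gene Tubb4b stood at 1098 ± 207 RPKM in the in vivo 4-cell embryos, 10.7 ± 3.61 in the NTC group and 12.2 ± 6.97 in the NTM group (log2 differences of -6.58 ± 0.30 and -6.51 ± 0.45). Bub3, which encodes a WD40 protein of the spindle checkpoint, stood at 203.9 ± 46.8, 3.16 ± 0.471 and 4.00 ± 2.58 RPKM (-5.60 ± 0.31 and -5.49 ± 0.53). Tubb4b, Bub3, Tbcb, Pfdn1 and Pfdn5 were the listed partners that lay above all 57 other libraries in each in vivo 4-cell embryo, by 7.37-, 4.09-, 1.54-, 1.17- and 1.12-fold. They came from lists with 18 tubulin, 13 WD40, 6 tubulin cofactor and 6 prefoldin genes measured. The lists of 8 actin and 4 phosducin-like genes held none. Of all 13535 genes with a mean of at least 0.5 RPKM, 6.95% were separated in this way. The cytoplasmic actin genes Actb and Actg1 went in opposite directions. Actb was at 247.4 ± 35.4 RPKM in in vivo and 13.9 ± 6.54 in NTC 4-cell embryos (-4.17 ± 0.39), and Actg1 at 26.0 ± 4.98 and 117.1 ± 9.04 (2.15 ± 0.27). In NTM embryos the differences were -3.95 ± 0.67 and 2.67 ± 0.63.

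The counts for the partner lists at the 4-cell stage were mixed. Of all genes tested, 20.4% were called lower and 7.4% higher in the NTC group, and 17.8% lower and 3.33% higher in the NTM group. In NTC against in vivo embryos, 9 of 14 tubulin genes were lower and none higher, 3 of 6 prefoldin genes were lower and 1 (Pfdn4, 1.92 ± 0.36) higher, and 2 of 5 actin genes were lower and 2 higher. In NTM embryos these counts were 5 and 0 of 14, 2 and 1 of 6, and 1 and 1 of 5. Of the WD40 genes, 1 of 11 was lower and 3 higher in NTC, and 2 of 12 lower and 1 higher in NTM embryos. Hspd1 was higher in both NT groups (1.15 ± 0.34 and 1.76 ± 0.39).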

How the data were processed

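RNA-seq libraries of single embryos and donor cells were grouped by the labels (20 groups of 3). Reads were aligned and counted over genes by the authors and deposited as RPKM. The study's methods name TopHat, Bowtie2 and HTSeq, with annotation from UCSC, and the submitters' processing notes name Bowtie 0.12.2 and mm8, but the values of the CCT genes gave whole reads at GENCODE M21 (GRCm38) exon lengths for 6 of the 8 genes, and coordinates are from that release. ERCC spike-ins are not analysed here.

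RPKM were analysed as log2(RPKM + 1), so that changes of low genes are understated. Genes with a mean of at least 0.5 RPKM over the libraries compared were tested with limma 3.58.1 (R 4.3.3, moderated test with a trend), in 36 comparisons of 2 groups and 2 interactions, with Benjamini-Hochberg adjustment over all genes tested. p-values are two-sided. A call needed an adjusted p under 0.05 and a log2 difference of at least 1. On simulated data with 200 genes changed by 3 on the log2 scale, 83.5% were recovered with 4 false calls for NTC against in vivo 4-cell embryos (11457 genes), and 11% with 0 false calls for the blastula (9288 genes).

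Alternatives were a pseudocount of 0.1, no filter, median-ratio scaling, nuclear genes only, 1 fit over all groups, a replicate block and leaving out each library. The members and lists were chosen with earlier results of these data known. All members are named, with up to 3 called genes of each list by size of change at the 4-cell stage and the 5 genes with the highest correlation. The limit that a count of 0 allows was taken as 3 reads and covers counting error only. Promoter sequences are from RefSeq.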

Additional observations from a re-analysis of the deposited data

Results flagged for a closer look

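The change from the 2-cell to the 4-cell stage differed between NT and in vivo embryos by limma's interaction term for 3 CCT genes. The term (log2, NT minus in vivo) was -2.61 for Tcp1, -5.50 for Cct3 and -5.91 for Cct8 in NTC embryos, and -5.79 for Cct3 and -5.83 for Cct8 in NTM embryos. In these 5 cases the 3 in vivo 4-cell libraries are the ones that stand apart.

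In 3 further cases all libraries of the later stage lay above those of the earlier stage in one embryo type and below them in another. The libraries of 2 stages are different embryos, and the difference between types was not tested. How many of all genes met this rule was not counted. Cct2 differed from the 1-cell to the 2-cell stage by 2.06 (log2) in in vivo embryos and by -1.16 in NTC embryos. At the same step it differed by -2.38 in NTM embryos, against the same 2.06 in in vivo embryos. Cct7 differed from the 4-cell to the 8-cell stage by -0.49 in in vivo and by 0.54 in NTC embryos. The median of all genes at this step was -1.05 in in vivo and -0.16 in NTC embryos. Both values of Cct7 thus lay above the median of their comparison, and the opposite signs depend on the scaling of the libraries. The 2.06 rests on in vivo 1-cell replicate 1, which held 13 reads of Cct2, and was 0.58 without it. Of these values only the -1.16 of Cct2 was called in its own comparison.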

How the results depend on the processing

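Of 43 calls of single CCT genes, 30 held under every other setting but the 8-cell one and 13 were lost under at least 1, and none of these settings turned a direction. In all, 54 of 546 values lost the call. The cause was not tested in any of the cases below.

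The number of CCT genes called in NTM embryos from the 1-cell to the 2-cell stage was 2, against 1 with a pseudocount of 0.1, 0 with no filter and 4 in 1 fit over all groups. That fit also called 2 genes in NTC and 1 in NTM against in vivo 1-cell embryos, 1 in NTC against in vivo 2-cell embryos and 2 in NTM against NTC 2-cell embryos, where the reported counts were 0. Median-ratio scaling called 1 gene in NTM against NTC 1-cell embryos (0 reported). It also called Cct2 and Cct6a higher in in vivo 8-cell against 4-cell embryos. Cct2 in NTC and Cct6a in NTM 4-cell embryos, against in vivo embryos, were called higher with median-ratio scaling and with nuclear genes only. NTC blastulas against CCs went from 1 to 0, and NTM blastulas against MEFs from 1 to 2, with median-ratio scaling and with nuclear genes only.

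The 8-cell libraries are another stage, not another processing of the same embryos. With the 8-cell in place of the 4-cell libraries, the count fell from 8 to 4 in in vivo embryos, and the interactions from 3 (NTC) and 2 (NTM) to 0. For Cct3 and Cct8 the loss followed from the choice of this setting, since both had been seen to be low outside the in vivo 4-cell libraries. Cct8 then differed by -0.31 in in vivo embryos, and the interactions turned to 0.61 (Tcp1), 0.082 (Cct3) and 0.94 (Cct8) in NTC and to 1.40 (Cct8) in NTM embryos.

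Leaving out 1 library at a time, counts ran from 0 to 4 for the 1-cell to 2-cell step in NTC and in NTM embryos, from 3 to 5 for NTM 4-cell against 2-cell, and from 0 to 2 for NTC blastulas against CCs and for NTM blastulas against NTM morulae. They ran from 0 to 1 for NTM blastulas against MEFs, MEFs against CCs, NTC against in vivo 1-cell and NTM against NTC 1-cell embryos.

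Replicate numbers did not pair the samples, since the correlation of same-numbered deviations ran from -0.181 to 0.119 and 0 of 36 comparisons had all 3 over 0.1. With the replicate block the calls over all comparisons went from 43 to 42, and 3 were lost, namely Cct2 in in vivo 4-cell against 2-cell embryos (adjusted p = 0.0892), Cct6a in NTC 2-cell against 1-cell embryos (0.0512) and Cct8 in NTC blastulas against CCs (0.0764).

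On simulated data only 11% of genes changed by 3 on the log2 scale were recovered for NTC against in vivo blastulas, so the absence of calls there does not show equal levels.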
